A study of Mus musculus with 4 samples.

Results

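The genes of oxidative phosphorylation were examined in leukemia cells that lacked IRF4 and were then given it back. A gene was a member when it was protein-coding in GENCODE M21 and its symbol marked it as a subunit of respiratory chain complexes I to V, that is, Ndufa, Ndufb, Ndufc, Ndufs or Ndufv (without the Ndufaf assembly factors), Sdha to Sdhd, Uqcr or Cyc1, Cox4 to Cox8, Atp5 or mt-. These names took in 100 of the 55359 gene identifiers in the count table, 87 encoded in the nucleus and 13 in the mitochondrial genome, by name alone. All 13 mt- genes and 80 of the nuclear genes passed the filter on low counts and were tested, 93 in all.

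Bulk RNA sequencing was done on T8, a B-cell precursor leukemia line (pB-ALL in the labels) that arose from a tumor of an Irf4-/- mouse, so every library carried the deletion. The cells received a retrovirus coding for GFP alone (EV-RV) or for GFP plus IRF4 (IRF4-RV), and still viable cells were collected 24 h later. Each group held 2 libraries, called biological replicates by the submitters, and no source used here says whether they were separate transductions, so p-values measure the spread between these libraries, which may be partly technical. T8 is a line from 1 tumor, IRF4 was expressed from a retrovirus rather than its own locus, and the protocol text of the labels names T11, another line, where the titles and the tissue name T8.

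Oxidative phosphorylation is the process by which mitochondria make ATP. Complexes I and II feed electrons from NADH and succinate to ubiquinone, complex III passes them to cytochrome c, complex IV passes them to oxygen, and complex V, the ATP synthase, uses the proton gradient that complexes I, III and IV build. Complex II is encoded in the nucleus alone, whereas the other complexes join nuclear subunits with a few hydrophobic core subunits that are transcribed and translated inside the mitochondrion from a small circular genome. Leukemia cells, like other fast growing cells, draw on glycolysis and on this pathway.

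The libraries held 31230223 to 37817752 counts. Irf4 itself had 8070 and 7600 counts in EV-RV and 95578 and 90693 in IRF4-RV, a log2 fold change of 3.46 ± 0.0826 (SE of the fit, n = 2 per group, edgeR quasi-likelihood FDR = 1.14e-06). The EV-RV counts are from cells that carry the deletion, and whether those transcripts can give IRF4 protein was not tested here. Pre-B markers summed to 121083 and 119677 counts in EV-RV and 92108 and 98178 in IRF4-RV (1 of 10 tested higher, 4 lower), while Rag1 and Rag2, which recombine the immunoglobulin genes, had at most 1 count. The marker lists of T and NK cells, of macrophages and of granulocytes each summed to at most 58 counts in any library, and erythroid markers to 408 and 417 counts in EV-RV and 466 and 578 in IRF4-RV. Stromal markers (Col1a1, Col1a2, Col3a1, Pdgfra, Pdgfrb, Cxcl12) summed to 1585 and 2818 counts in EV-RV and to 1591 and 8051 in IRF4-RV, and the line had first been grown on ST2 stromal cells. In bulk samples, fewer cells of a type and less RNA per cell cannot be told apart.

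The mitochondrially encoded mRNAs are short, lack introns and abut or overlap each other, which bears on how their reads can be counted. In 4 places these mRNA genes share bases with each other, apart from 2 or 3 bases that some share with tRNA genes. mt-Atp6 and mt-Co3 share the single base chrM:8607. The 3 longer stretches are shown here because reads lying across them overlap both genes, for mt-Nd5 and mt-Nd6 only where strand is ignored. In each line the last bases of the first gene stand in lower case and the bases it shares with the second gene in capitals (sequence of the GENCODE M21 transcripts, GRCm38, written 5′ to 3′ on the + strand).
mt-Atp8 into mt-Atp6: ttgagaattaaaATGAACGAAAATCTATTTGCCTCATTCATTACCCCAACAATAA
mt-Nd4l into mt-Nd4: caacctactacaATGCTAA
mt-Nd5 into mt-Nd6: tcttatactcaaTTAATCTCGAGTAA
The first overlap spans 43 bases at chrM:7927-7969, the second 7 bases at chrM:10167-10173 and the last 14 bases at chrM:13552-13565. In this last pair the genes lie on opposite strands, and mt-Nd6 at chrM:13552-14070 was the only one of the 13 on the - strand. Whether the counting used strand is not given in the sources used here, so reads of mt-Nd6 and reads of RNA copied from the other strand at that place cannot be told apart. The mt-Nd6 mRNA had 28.1% G and 5.97% C, and the other 12 had 5.88% to 16.1% G, which shows the uneven base composition of the strands. The transcripts of mt-Co3, mt-Nd4 and mt-Cytb each ended 1 base after their last full codon, so that their annotated sequence holds no complete stop codon, which polyadenylation is known to supply.

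The mitochondrial mRNAs were also present as nuclear copies that the table lists as genes of their own. Of the 13, 9 had an annotated pseudogene with at least 95% identity over at least 100 aligned bases of the coding sequence. A block of 7 such copies on chromosome 1, between 24611535 and 24616197, was 99.7% to 100% identical to mt-Co1, mt-Co2, mt-Atp6, mt-Co3, mt-Nd3, mt-Nd4l or mt-Nd4. The start of mt-Nd3 (chrM:9459-9806) and of its copy Gm28438 (chr1:24612775-24613119, - strand) are printed to show how little separates them, with the single base that differed in the 345 compared in capitals.
mt-Nd3: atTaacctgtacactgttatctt
Gm28438: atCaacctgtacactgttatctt
The difference was T3C, with mt-Nd3 given first and positions counted from 1 at its first base. Gm28438 held 99.8% to 101% of the counts of mt-Nd3 in the same library, Gm28437 100% to 101% of those of mt-Co3, Gm28661 101% to 102% of those of mt-Co2 and Gm10222 99.7% to 101% of those of mt-Nd4l. The nearly full-length copy Gm10925 held 132% of the counts of mt-Atp6 in every library, and the copies Gm28439 and Gm29216, which cover part of mt-Nd4 and mt-Co1, held 56.4% to 56.8% and 17.2% to 17.8%. How reads with several alignments were entered is not given in the sources used here, and from these counts it was not determined. The levels of these mt- genes are therefore uncertain, and their copies were not read as separate genes. For mt-Cytb, mt-Nd1, mt-Nd6 and mt-Atp8 no annotated copy met these limits, and the annotated copies of mt-Nd5 and mt-Nd2 held at most 1.18% of their counts. Copies that are not annotated as genes were not sought. On the mitochondrial genome mt-Atp8 starts between mt-Co2 and mt-Atp6, and both of these have copies in the block on chromosome 1. Whether that block also holds an unannotated copy of mt-Atp8 was not tested, so its level may be uncertain too.

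Of the 13 mitochondrial mRNAs, 11 rose with IRF4-RV and none fell. Their median log2 fold change was 0.53, with a range from 0.09 for mt-Nd3 to 0.60 for mt-Nd5, and that of all genes tested was 0.01. The share called was 84.6%, where 29.7% of all 14637 genes tested were called in either direction, 16% higher and 13.7% lower. Of the 3872 genes with a mean of at least 50 CPM, a level that all 13 reached, 40.9% were called. The 13 also moved together between libraries, with EV-RV 1 the lowest for each, so they do not count as 13 separate observations. In 12 of the 13 both IRF4-RV libraries lay above both EV-RV libraries, a pattern that 31.3% of all genes tested showed and 61.3% showed in either direction. Values are given as CPM, counts scaled to a common library size (per 1e+06 counts) after TMM factors, and a call is an FDR under 0.1 in edgeR's quasi-likelihood test over all genes.

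**Figure D1:**
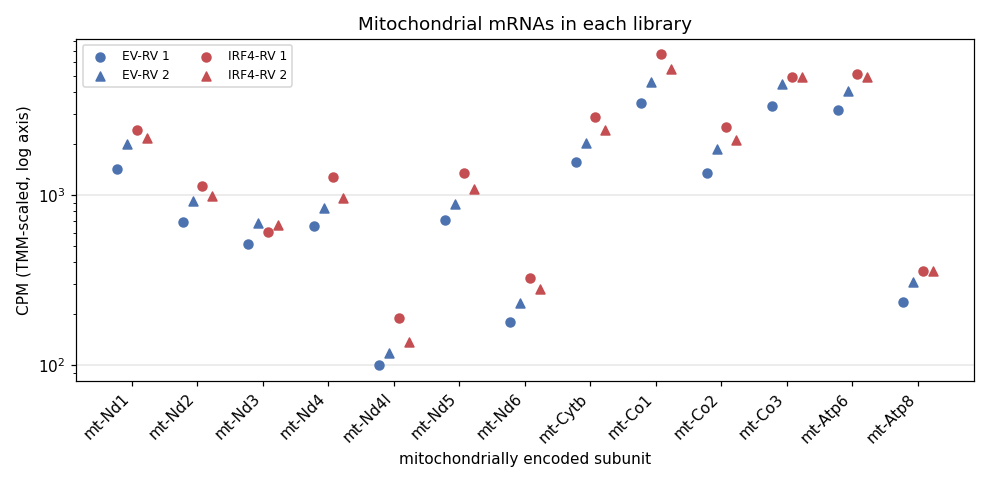
Level of each mitochondrially encoded mRNA (CPM on a log axis) in the 2 EV-RV libraries (blue) and the 2 IRF4-RV libraries (red), with circles for replicate 1 and triangles for replicate 2. The red points lie above the blue ones for every gene but mt-Nd3, and EV-RV 1 is the lowest library for all 13.

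The 7 mitochondrial subunits of complex I form the core of its proton-pumping membrane arm. mt-Nd5, at the far end of that arm, had 709 and 887 CPM in EV-RV and 1347 and 1078 CPM in IRF4-RV, a log2 fold change of 0.60 ± 0.135 (SE, FDR = 0.0159). mt-Nd4 had 658 and 841 CPM in EV-RV and 1268 and 954 CPM in IRF4-RV (0.57 ± 0.154, FDR = 0.0341). mt-Nd4l, which shares its transcript with mt-Nd4, had 99.7 and 118 CPM in EV-RV and 188 and 137 CPM in IRF4-RV (0.58 ± 0.15, FDR = 0.0299). In these 3 genes the groups did not overlap, and the first IRF4-RV library was the highest. mt-Nd6, the light-strand mRNA, had 179 and 232 CPM in EV-RV and 326 and 279 CPM in IRF4-RV, a log2 fold change of 0.56 ± 0.129 (FDR = 0.0186). Its counts were 1.04% and 1.02% of those of the other 12 mRNAs together in EV-RV and 1.11% and 1.06% in IRF4-RV. Since strand is not known, this share is of reads at that place and not of light-strand mRNA alone. mt-Nd1, near the ubiquinone site, had 1417 and 1996 CPM in EV-RV and 2393 and 2159 CPM in IRF4-RV (0.42 ± 0.148, FDR = 0.0848). mt-Nd2 had 688 and 924 CPM against 1129 and 991 CPM (0.39 ± 0.137, FDR = 0.0784). These last calls were the weakest of the 11, and for mt-Nd1 and mt-Nd2 the upper EV-RV library stood close to the lower IRF4-RV library.

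mt-Nd3 stood apart from the rest. It had 511 and 681 CPM in EV-RV and 604 and 668 CPM in IRF4-RV, so that the groups overlapped, and its log2 fold change of 0.09 ± 0.131 did not pass the test (FDR = 0.663). As a share of all counts on the 13 genes, which no scaling between libraries touches, mt-Nd3 made up 2.95% and 2.96% in EV-RV and 2.03% and 2.52% in IRF4-RV. The share of mt-Co3 was 19.2% and 19.5% in EV-RV and 16.6% and 18.6% in IRF4-RV, and that of mt-Co1 was 19.97% and 19.92% against 22.5% and 20.7%. The shares of 4 genes were lower in both IRF4-RV libraries than in both EV-RV libraries (mt-Nd3, mt-Co3, mt-Nd1 and mt-Nd2) and those of 3 were higher (mt-Co1, mt-Cytb and mt-Nd6). On CPM, the groups did not overlap for 61.3% of all genes tested in either direction. The shares of the 13 genes also depend on each other, since a higher share of 1 gene lowers those of others. With 2 libraries in each group an exact permutation test of such a share cannot give a two-sided p below 0.333, so none was run.

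Complex III has a single mitochondrial subunit, the cytochrome b of mt-Cytb, which carries its hemes. mt-Cytb had 1559 and 2010 CPM in EV-RV and 2854 and 2410 CPM in IRF4-RV, a log2 fold change of 0.56 ± 0.131 (FDR = 0.0192). The groups were apart, with the first IRF4-RV library the highest.

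The 3 mitochondrial subunits of complex IV form its core. mt-Co1, the subunit where oxygen is reduced, had 3461 and 4587 CPM in EV-RV and 6692 and 5481 CPM in IRF4-RV (log2 fold change 0.60 ± 0.143, FDR = 0.0216). mt-Co2, which accepts electrons from cytochrome c at a copper center, had 1335 and 1857 CPM against 2500 and 2094 CPM (0.53 ± 0.153, FDR = 0.0447). mt-Co3 had 3323 and 4493 CPM in EV-RV and 4938 and 4935 CPM in IRF4-RV, a log2 fold change of 0.34 ± 0.13 that was not called (FDR = 0.107). For all 3 the groups did not overlap, although for mt-Co3 the second EV-RV library came within reach of the IRF4-RV libraries.

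In complex V, mt-Atp6 forms part of the proton channel beside the c-ring and mt-Atp8 is a small subunit next to it. mt-Atp6 had 3161 and 4091 CPM in EV-RV and 5103 and 4948 CPM in IRF4-RV, a log2 fold change of 0.47 ± 0.117 (FDR = 0.0246). mt-Atp8 had 233 and 308 CPM in EV-RV and 356 and 357 CPM in IRF4-RV (0.40 ± 0.122, FDR = 0.0529). Both were higher in each IRF4-RV library than in either EV-RV library, and both are read from the same bicistronic mRNA with the shared bases printed above.

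The 2 mitochondrial ribosomal RNAs, transcribed from the same strand as most of the mRNAs, had smaller differences that did not pass the test. mt-Rnr1 had 343 and 464 CPM in EV-RV and 476 and 487 CPM in IRF4-RV (log2 fold change 0.26 ± 0.131, FDR = 0.212), and mt-Rnr2 had 1073 and 1495 CPM against 1511 and 1613 CPM (0.28 ± 0.141, FDR = 0.202). The counts of the 13 mRNAs were 12.2 and 11.8 times those of the ribosomal RNAs in EV-RV and 14.9 and 12.6 times in IRF4-RV. How ribosomal RNA was removed or mRNA selected in the library preparation is not given in the sources used here.

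The first EV-RV library was the lowest for all 13 mRNAs. The 13 mRNAs summed to 17335 and 23025 CPM in EV-RV and to 29696 and 26489 CPM in IRF4-RV, or 1.83%, 2.32%, 2.89% and 2.55% of all counts, a fold of 1.39 between the group means and of 1.15 to 1.71 between single libraries. Without the first EV-RV library 5 of the 13 were called, the median log2 fold change was 0.30 and mt-Nd3 was at -0.11, and without the second EV-RV library all 13 were called with a median of 0.71. Without the first IRF4-RV library 8 were called (median 0.37). Without the second IRF4-RV library, which held the most stromal marker counts, 11 were called (median 0.65). mt-Nd5, mt-Nd6, mt-Cytb, mt-Co1 and mt-Atp6 were called in each of these 4 fits. With the counts of each mt- gene added to those of its nuclear copies, an alternative chosen after seeing the data, 12 of the 13 were called (mt-Co3 now among them, FDR = 0.0986) with a median of 0.51. The chromosome 1 copies held nearly the same share of their gene in every library, so this alternative could hardly move the fold changes. If reads were entered at each place they aligned, it also counts them again. In DESeq2, the tool named in the study's methods, 9 were called, with mt-Nd1 (FDR = 0.311), mt-Co2 (FDR = 0.186) and mt-Nd4 (FDR = 0.146) no longer and mt-Co3 (FDR = 0.0241) added, and scaled by library size alone mt-Nd1 (FDR = 0.134) and mt-Nd2 (FDR = 0.13) lost their calls.

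Few of the nuclear genes of the same complexes were called. Of the 80 tested, 8 were called (10%), 4 higher and 4 lower, whereas 29.7% of all genes tested were called, and 40.9% of the 3872 genes with a mean of at least 50 CPM, a level that 72 of the 80 reached. Their median log2 fold change was -0.01, with 36 above 0 and 44 below, and 67 lay within 0.25 of 0. The extremes were -0.37 for Ndufs7 and 0.41 for Cox7a2l. The groups did not overlap for 25 of them, 14 higher and 11 lower, beside 61.3% of all genes tested in either direction. The median SE was 0.0966 for these genes, 0.135 for the mt- genes and 0.121 for all genes tested, so their small differences did not go with wider errors. Scaled by library size alone, the split of calls was 2 higher and 13 lower.

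**Figure D2:**
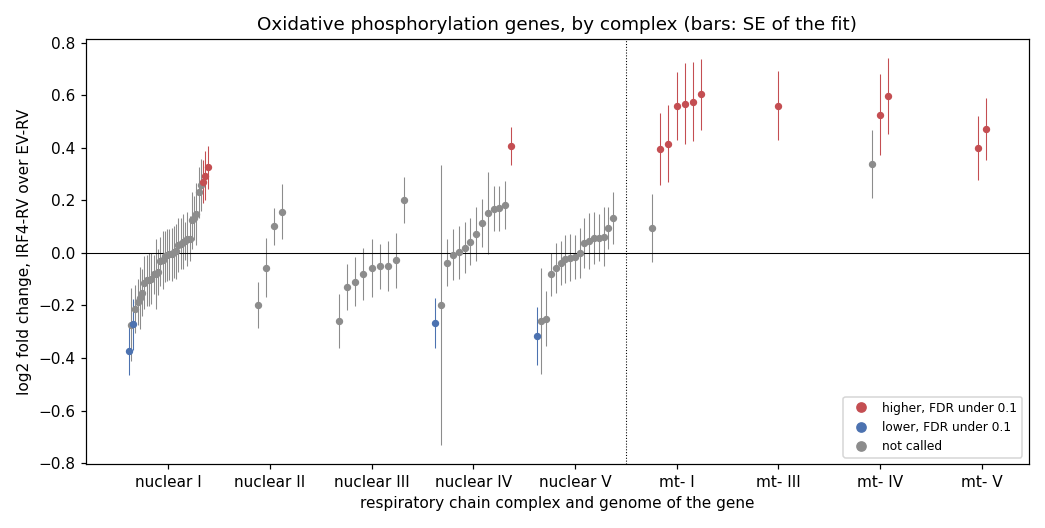
Log2 fold change of each tested subunit gene, IRF4-RV over EV-RV, with the SE of the fit as bars, grouped by complex and by the genome that encodes it, and colored by call at an FDR of 0.1. The nuclear genes scatter around 0 between -0.37 and 0.41, and the 13 mt- genes all lie above 0, 12 of them at 0.34 or more.

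Per kilobase of exon, which allows levels of different genes to be set side by side, the mt- genes ran in EV-RV from 367 CPM per kb for mt-Nd4l to 5325 CPM per kb for mt-Atp6, with a median of 1560. The nuclear genes tested had a median of 77.9 CPM per kb and reached 635 CPM per kb in Cox6a1, followed by Cox8a at 627 and Atp5a1 at 622. The most abundant nuclear subunits by this measure stood among the lower mt- genes, a rank that the lengths used may set too low.

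The ratio of mitochondrial to nuclear counts within a library does not depend on how libraries are scaled. It was 1.14 and 1.32 in EV-RV and 1.90 and 1.57 in IRF4-RV. For complex I the ratio was 1.31 and 1.52 against 2.13 and 1.72, for complex III 1.08 and 1.20 against 2.03 and 1.56. For complex IV it was 2.82 and 3.32 against 4.43 and 3.62, and for complex V 0.495 and 0.562 against 0.798 and 0.725. In each of the 4 complexes that both genomes encode, both IRF4-RV libraries had the higher ratios. The nuclear side summed to 15220 and 17414 CPM in EV-RV and to 15665 and 16829 CPM in IRF4-RV, a fold of 0.996 between the means, so the groups overlapped there.

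**Figure D3:**
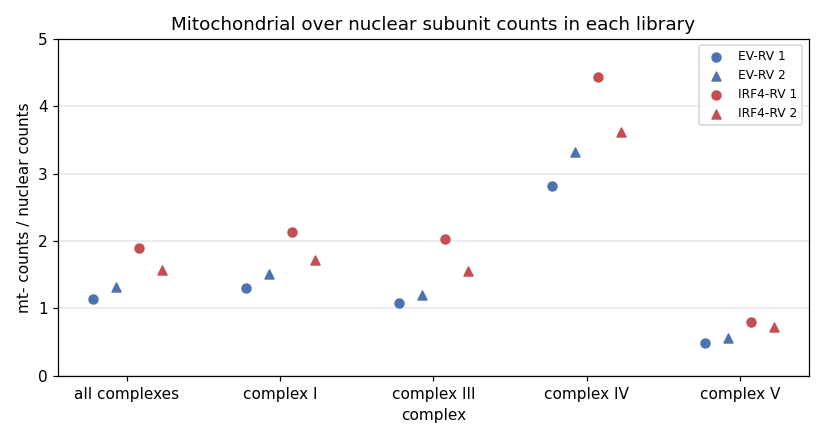
Counts of the mitochondrially encoded subunits divided by counts of the nuclear subunits in each library, for all complexes and for each complex with subunits from both genomes. Within every complex the 2 IRF4-RV libraries (red) lie above the 2 EV-RV libraries (blue), and the first IRF4-RV library is the highest.

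In complex I, 5 of the 36 nuclear genes were called, 3 higher and 2 lower, and the median log2 fold change was -0.01. Ndufs7, a core subunit of the peripheral arm that carries the last iron-sulfur cluster before ubiquinone, had 98 and 111 CPM in EV-RV and 77.2 and 84 CPM in IRF4-RV, and it fell by 0.37 on the log2 scale (SE 0.0908, FDR = 0.0227). The groups were apart, with both IRF4-RV libraries below both EV-RV libraries. Ndufa13, an accessory subunit of the membrane arm also known as GRIM-19, had 92.1 and 102 CPM in EV-RV and 120 and 123 CPM in IRF4-RV (0.32 ± 0.0817, FDR = 0.0257). Ndufb11, an X-linked accessory subunit of the membrane arm, had 168 and 197 CPM against 216 and 232 CPM (0.29 ± 0.0936, FDR = 0.0596). Ndufa5, an accessory subunit of the peripheral arm, had 49 and 56.3 CPM against 42.4 and 44.8 CPM (-0.27 ± 0.0972, FDR = 0.0868). Ndufs7 and Ndufa5, both lower, thus belong to the peripheral arm, and Ndufa13 and Ndufb11, both higher, to the membrane arm. Of the other core subunits followed here, Ndufs1 had 105 and 109 CPM in EV-RV and 102 and 101 CPM in IRF4-RV (FDR = 0.48), and Ndufv1, which binds NADH, had 178 and 205 CPM against 177 and 187 CPM (FDR = 0.608).

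Some of these genes share exonic bases with a neighbor on the opposite strand. Ndufa13 overlaps Tssk6 by 375 bases (45 to 65 counts per library on Tssk6). Ndufb11 overlaps Rbm10 by 117 bases, and Rbm10 had 2464 to 2652 counts, so that for Ndufb11 the strand of the reads could matter more than for Ndufa13.

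None of the 4 genes of complex II, the succinate dehydrogenase that has no mitochondrial partner, was called. Sdha, its flavoprotein, had 319 and 307 CPM in EV-RV and 340 and 331 CPM in IRF4-RV, a log2 fold change of 0.10 ± 0.0701 (FDR = 0.358). Sdhb, its iron-sulfur subunit, had 158 and 174 CPM against 137 and 152 CPM (-0.20 ± 0.087, FDR = 0.151). The groups were apart in both genes, Sdha with IRF4-RV above and Sdhb with IRF4-RV below, and neither difference passed the test.

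None of the 9 nuclear genes of complex III was called either, and 8 of them had a log2 fold change below 0, with a median of -0.06. Cyc1, the cytochrome c1 that hands electrons to cytochrome c, came nearest, with 198 and 242 CPM in EV-RV and 178 and 189 CPM in IRF4-RV (-0.26 ± 0.103, FDR = 0.115). Uqcrfs1, the Rieske iron-sulfur protein, had 183 and 225 CPM against 185 and 207 CPM (-0.06 ± 0.111, FDR = 0.765). The mt-Cytb mRNA of the same complex was called higher, as given above.

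In complex IV, 14 of the 20 nuclear genes were tested and 2 were called. Cox7a2l, also known as SCAF1, is described as joining complexes III and IV into supercomplexes, which were not measured in these cells. It was the nuclear gene with the largest rise and the lowest FDR. It had 218 and 230 CPM in EV-RV and 291 and 302 CPM in IRF4-RV, a log2 fold change of 0.41 ± 0.0722 (FDR = 0.00599). The replicates of each group lay close together and the groups far apart. Its paralog Cox7a2, a subunit of the complex proper, had 111 and 127 CPM against 120 and 125 CPM (0.04 ± 0.0884, FDR = 0.782). Cox5a, a matrix-side subunit, had 145 and 172 CPM in EV-RV and 128 and 135 CPM in IRF4-RV (-0.27 ± 0.0952, FDR = 0.0844), with the groups apart. Cox4i1, the largest nuclear subunit, had 524 and 583 CPM against 595 and 650 CPM (0.17 ± 0.0852, FDR = 0.204).

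Complex IV also has isoforms that other tissues use, and T8 expressed mainly the ubiquitous member of each pair. Cox4i2, Cox6b2, Cox7b2, Cox8b and Ndufa4l2 had at most 3 counts in any library, and Cox8c had 0 in all 4, which allows up to 0.0824 to 0.0952 CPM at 3 counts. These 6 genes and a second identifier for Atp5o, which was also at 0, were the 7 nuclear members not tested. The heart and muscle forms Cox6a2 and Cox7a1 were tested at low levels. Cox6a2 had 23 and 10 counts in EV-RV and 13 and 18 in IRF4-RV, and Cox7a1 had 158 and 149 counts against 171 and 199. Their partner Cox6a1 had 418 and 474 CPM against 483 and 519 CPM (0.17 ± 0.0864, FDR = 0.216), and Cox6b1, Cox7b, Cox8a and Ndufa4 lay between -0.04 and 0.11 with an FDR of at least 0.433. No switch from a ubiquitous to a tissue form was detectable at this depth.

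In complex V, 1 of 17 nuclear genes was called. The c-ring that turns with the proton flow is built of subunit c, for which Atp5g1, Atp5g2 and Atp5g3 encode the same mature protein with different import sequences. Atp5g1 had 198 and 249 CPM in EV-RV and 174 and 185 CPM in IRF4-RV and was called lower (-0.32 ± 0.111, FDR = 0.0807). Atp5g3 had 605 and 730 CPM against 533 and 589 CPM (-0.25 ± 0.104, FDR = 0.132), with the groups apart. Atp5g2 had 343 and 401 CPM against 382 and 392 CPM (0.06 ± 0.0898, FDR = 0.7), and its groups overlapped. The catalytic subunits Atp5a1 and Atp5b had -0.04 ± 0.0828 (FDR = 0.783) and -0.08 ± 0.081 (FDR = 0.526).

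**Figure D4:**
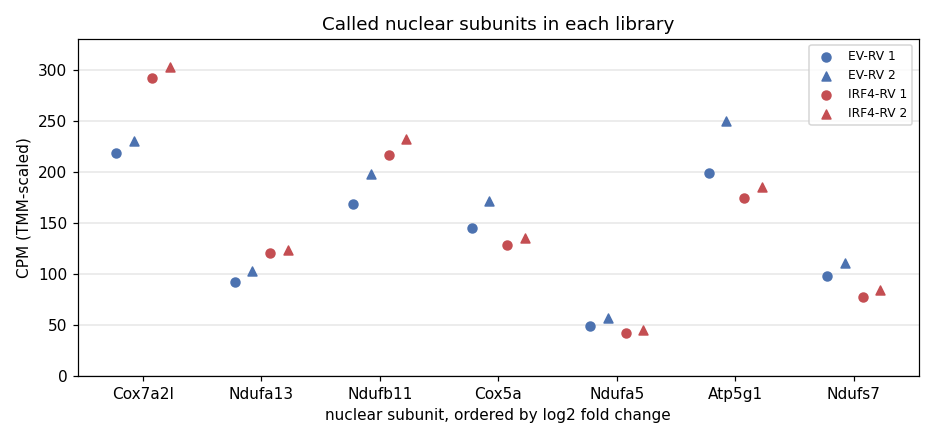
CPM of 7 nuclear subunit genes called at an FDR of 0.1, in the 2 EV-RV libraries (blue) and the 2 IRF4-RV libraries (red), ordered from the largest rise to the largest fall. The 3 genes on the left have both red points above the blue ones and the 4 on the right below, and the steps are small, with Cox7a2l going from 218 and 230 CPM to 291 and 302 CPM.

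Among the nuclear calls, Cox7a2l and Ndufs7 were called in each of the 4 fits that left out 1 library. The number of nuclear calls without the first or second EV-RV library was 13 (1 higher, 12 lower) or 15 (14 higher, 1 lower), and without either IRF4-RV library it was 4. Ndufa13 lost its call without the first EV-RV library (FDR = 0.104) or the second IRF4-RV library (FDR = 0.11), and Atp5g1 without the second EV-RV library (FDR = 0.325) or the first IRF4-RV library (FDR = 0.131). Ndufb11, Ndufa5 and Cox5a lost theirs in 2 or 3 of the 4, with FDR up to 0.239, 0.331 and 0.335. Copies also touched the nuclear genes. Of the 87, 25 had a near-identical copy, whose counts came to over 5% of the own counts in 14, among them 86.3% for Atp5g2, 78.3% for Atp5l and 6.5% for Atp5g1. Both the 25 and the 14 include the second identifier for Atp5o, which had 0 counts of its own and the same copy as Atp5o.

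The promoters of the nuclear genes were searched because NRF1, GABPA and YY1 are textbook activators of respiratory genes and because IRF4 binds composite ETS-IRF and interferon-response elements. RefSeq (GRCm38.p6) gave windows of 250 bases before to 50 bases after the start for 67 of the 87 genes, 72 windows in all, and motifs were sought on both strands. The NRF1 letters GCATGCGC were in 13.9% of the windows against 2.71% of all 32851, the YY1 letters ATGGCGGC in 9.72% against 2.24%, and the ETS letters CCGGAAGT, to which GABPA binds, in 6.94% against 3.89%. The ETS-IRF letters GGAANNGAA were in 6.94% against 8.24%, and the interferon-response letters GAAANNGAA in 9.72% against 8.56%. GGAANNGAA and GAAANNGAA can overlap each other and the ETS letters. Of the 7 called genes with a window, Ndufs7 held the YY1 letters and Atp5g1 the interferon-response letters, both of them lower in IRF4-RV, and Cox7a2l held none of the 5. These 3 windows are shown for the genes with the largest fall and rise and for the called gene with an interferon-response match, each 300 bases in lower case with the match in capitals.
Cox7a2l (chr17:83514284-83514583, - strand): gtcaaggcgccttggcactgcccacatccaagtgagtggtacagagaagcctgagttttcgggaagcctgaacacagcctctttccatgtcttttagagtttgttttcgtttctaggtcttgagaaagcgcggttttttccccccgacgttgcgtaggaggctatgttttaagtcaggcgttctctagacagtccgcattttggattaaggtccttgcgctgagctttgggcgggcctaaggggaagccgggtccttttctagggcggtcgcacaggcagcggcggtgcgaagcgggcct
Ndufs7 (chr10:80249199-80249498, + strand): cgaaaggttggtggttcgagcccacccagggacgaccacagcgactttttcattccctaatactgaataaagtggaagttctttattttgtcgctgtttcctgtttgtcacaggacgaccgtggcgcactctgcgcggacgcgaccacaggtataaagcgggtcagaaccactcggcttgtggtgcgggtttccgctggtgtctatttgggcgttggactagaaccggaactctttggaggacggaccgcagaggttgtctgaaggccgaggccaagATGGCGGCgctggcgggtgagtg
Atp5g1 (chr11:96075582-96075881, - strand): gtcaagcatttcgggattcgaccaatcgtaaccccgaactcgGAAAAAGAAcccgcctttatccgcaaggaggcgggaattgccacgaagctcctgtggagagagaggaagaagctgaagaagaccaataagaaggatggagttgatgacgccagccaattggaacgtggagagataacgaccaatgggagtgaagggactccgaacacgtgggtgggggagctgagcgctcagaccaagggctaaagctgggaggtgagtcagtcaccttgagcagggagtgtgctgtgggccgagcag
A match of letters is not a site that a factor was seen to occupy, and no binding was measured in these libraries.

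Genes that serve the respiratory chain without being part of it were called in shares of 23.1% to 50% per list, beside 10% of the nuclear subunits and 29.7% of all genes. These shares were not tested against each other. The lists were described by their counts only, and genes named in them beyond the largest rise and fall of each list were picked after their values were seen. Of the 31 genes that replicate, transcribe, process or stabilize mitochondrial DNA and RNA, 13 were called, all lower, with a median log2 fold change of -0.24, and 25 were below 0. Tefm, the elongation factor of the mitochondrial RNA polymerase, had 18.4 and 23.8 CPM in EV-RV and 13.4 and 13.5 CPM in IRF4-RV and fell by 0.65 on the log2 scale (SE 0.135, FDR = 0.0122). Lrpprc, which protects mitochondrial mRNAs, had 169 and 170 CPM against 130 and 122 CPM (-0.42 ± 0.0737, FDR = 0.00539). Twnk, the helicase of mitochondrial DNA replication, had 36.7 and 38 CPM against 26.1 and 27.1 CPM (-0.49 ± 0.0877, FDR = 0.0062). Supv3l1, a helicase of mitochondrial RNA decay, had 41 and 44.5 CPM against 31 and 30.3 CPM (-0.48 ± 0.0896, FDR = 0.00733). The groups were apart in each of these 4. Lower calls also fell on Elac2 and Trmt10c, which cut and process the tRNAs between the mRNAs, on Mtpap, which adds their poly(A) tails, and on Tbrg4, Fastkd1, Fastkd2, Fastkd3 and Grsf1, RNA-binding proteins of the mitochondrial matrix. The RNA polymerase Polrmt (30 and 28.5 CPM against 29.3 and 25 CPM, FDR = 0.519) and the packaging factor Tfam (78.7 and 87.1 CPM against 76.4 and 73.8 CPM, FDR = 0.278) were not called. Without the second EV-RV library 6 of the 31 were called, and without the second IRF4-RV library 8. The mRNAs of the mitochondrial genome were thus called higher in the same libraries in which part of this machinery was called lower.

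**Figure D5:**
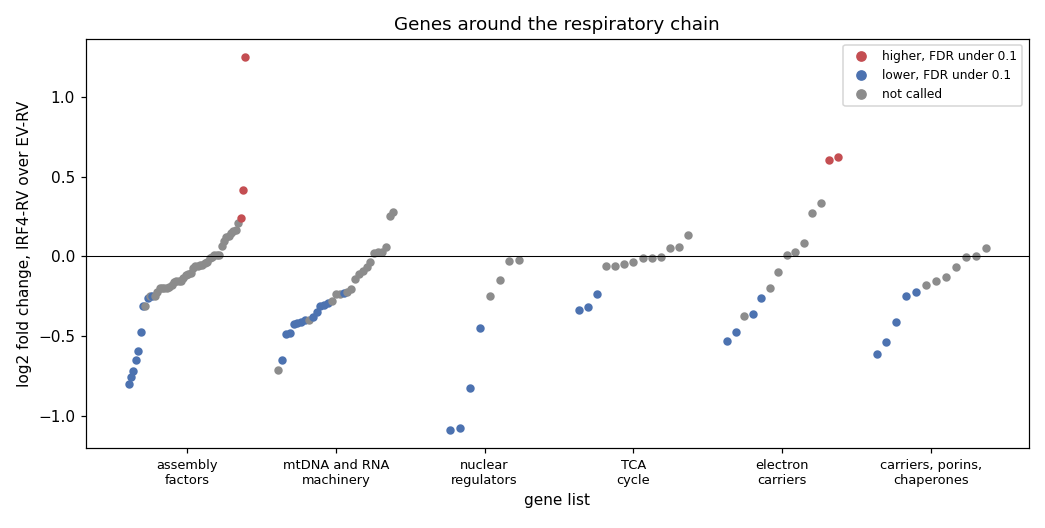
Log2 fold change of each tested gene in 6 lists around the respiratory chain, IRF4-RV over EV-RV, colored by call at an FDR of 0.1. The called genes of the mitochondrial DNA and RNA machinery, the regulators, the TCA cycle and the carriers all lie below 0, and Sco1 at 1.25 among the assembly factors is the highest point.

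Of the 8 nuclear regulators of mitochondrial genes that were tested, 4 were called, all lower, and all 8 lay below 0 with a median of -0.35. Myc, a driver of growth and mitochondrial biogenesis, had 279 and 283 CPM in EV-RV and 142 and 123 CPM in IRF4-RV, a log2 fold change of -1.09 ± 0.0864 (FDR = 0.000133). The PGC-1 family coactivator Ppargc1b had 8.33 and 7.9 CPM against 4.02 and 3.68 CPM (-1.08 ± 0.147, FDR = 0.00176), and its relative Pprc1 had 61.4 and 63.8 CPM against 38.4 and 32.5 CPM (-0.82 ± 0.102, FDR = 0.00114). Yy1 had 167 and 139 CPM against 117 and 108 CPM (-0.45 ± 0.103, FDR = 0.0179). In these 4 the groups did not overlap, while Nrf1 was at 57.4 and 60.3 CPM against 58.2 and 57 CPM (FDR = 0.827), and Ppargc1a had at most 1 count in any library.

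Of the 50 assembly factors tested, 3 were called higher and 9 lower, with a median of -0.11. Sco1, the copper chaperone of mt-Co2, had 12.7 and 12.1 CPM in EV-RV and 30.4 and 28.5 CPM in IRF4-RV and was the highest of them (1.25 ± 0.098, FDR = 0.000121). The largest fall was that of Ndufaf6, a complex I assembly factor, with 13.5 and 17.3 CPM against 8.09 and 9.56 CPM (-0.80 ± 0.156, FDR = 0.00871). Other factors for complex I went both ways, Ndufaf4 with 35.1 and 42.8 CPM against 23.1 and 24.2 CPM (-0.72 ± 0.115, FDR = 0.00379) and Ndufaf3 with 16.5 and 15.6 CPM against 20.7 and 22 CPM (0.41 ± 0.0995, FDR = 0.0213). The groups were apart in each of these genes.

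Among the 14 genes of electron carriers, that is, cytochrome c and the synthesis of ubiquinone, 2 were called higher and 4 lower, with a median of -0.04. Cycs, which encodes cytochrome c and passes electrons from complex III to IV, had 186 and 224 CPM in EV-RV and 140 and 156 CPM in IRF4-RV (-0.47 ± 0.105, FDR = 0.0157). Pdss1, which builds the tail of ubiquinone, fell by 0.53 on the log2 scale (SE 0.138, FDR = 0.029), while Coq10a, a ubiquinone-binding protein, was at 4.05 and 4.28 CPM against 7.32 and 5.49 CPM (0.62 ± 0.186, FDR = 0.048). Without the second EV-RV library 2 of the 14 were called and Pdss1 was not (FDR = 0.117), and Coq10a lost its call without either EV-RV library or the first IRF4-RV library (FDR up to 0.305). Of the 13 TCA cycle genes outside complex II, 3 were called, all lower (Idh3a -0.33, Suclg2 -0.31 and Dlst -0.24), with a median of -0.03, and 1 was called without the second EV-RV library (Idh3a FDR = 0.102) or the second IRF4-RV library. Of the 12 carriers, porins and chaperones, 5 were called, all lower, with a median of -0.17, and 3 without the second EV-RV library or either IRF4-RV library. The chaperonin Hspd1 was the lowest of these at 769 and 826 CPM against 526 and 520 CPM (-0.61 ± 0.0735, FDR = 0.00102), and the ATP carrier Slc25a5, at 1197 and 1413 CPM against 1187 and 1310 CPM, was not called (FDR = 0.696).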

How the data were processed

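RNA of 4 T8 libraries, 2 EV-RV and 2 IRF4-RV, was measured. The authors aligned reads to GRCm38 with STAR (2.4.0j) and deposited whole-number counts per gene from featureCounts, without normalization. Settings for strand and multiply aligned reads are not given in the sources used here. Groups came from the sample titles. Symbols and coordinates came from GENCODE M21. Members and lists were chosen with earlier results of these data known.

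All genes passing filterByExpr were fitted together in R 4.3.3 with edgeR 4.0.16 (TMM, quasi-likelihood F test, Benjamini-Hochberg FDR 0.1, no replicate block). Standard errors were taken from the fitted variance. The script was tested on simulated data. Named were all mt- genes, called nuclear genes with groups apart (up to 3 per complex and direction), core subunits, isoform groups, and the largest rise and fall of each list. Values of 1 called nuclear gene are not reported here. Copies were sought with BLAST 2.17.0 among annotated genes. Alternatives were DESeq2 1.42.0, other scalings and filters, a stricter FDR, a replicate block, leaving out each library, and adding nuclear copies. At 31230223 to 37817752 counts, 3 counts equal 0.0824 to 0.0952 CPM, and this floor covers counting error only.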

Additional observations from a re-analysis of the deposited data

How the results depend on the processing

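The mt- calls were 8 to 12 of 13 under every setting that kept all libraries, and 5 to 13 when 1 was left out. The nuclear calls moved more, from 8 to 15 by library size alone (2 higher, 13 lower), 13 with at least 50 counts in 2 libraries (8 lower), 12 with all genes that had a count (7 lower) and 4 at an FDR of 0.05 (1 lower). The replicate numbers pair only 2 samples a group and were not taken as pairing (correlation of same-numbered deviations 0.284 over all genes, -0.333 over the 93 members, 0.517 over the 13 mt- genes). The replicate block gave 25 nuclear calls (12 higher, 13 lower), 12 mt- calls, 20 among assembly factors, 8 among carriers, porins and chaperones, and both ribosomal RNAs (2). At an FDR of 0.05 there were 7 calls among assembly factors, 7 in the mitochondrial DNA and RNA machinery and 3 among carriers, which had 8 by library size alone. Both ribosomal RNAs (2) were called with all genes that had a count. Over all genes, the other settings that kept all libraries called 3347 to 6394, beside 4349 in the main fit. The counts of calls in the members and lists thus stand beside a background that moved as well, and its share under each setting is not given here. Leaving out 1 library gave 4 to 15 nuclear calls (1 to 14 higher, 1 to 12 lower), 6 to 12 in the DNA and RNA machinery, 1 to 3 in the TCA cycle, 2 to 6 among electron carriers, 3 to 7 among carriers and porins, and 0 to 2 ribosomal RNAs. Nuclear medians then ran from -0.13 to 0.101 for complex I, -0.0948 to 0.093 for complex II (reversed without the first EV-RV library), and -0.202 to 0.0454 for complex III, and mt- medians from 0.319 to 0.705 for complex I and 0.245 to 0.642 for complex V. The cause of these shifts was not tested. Over 51 named genes and 624 values, 550 kept their side of the threshold (533 with the same sign, and 17, over 12 uncalled genes such as mt-Nd3, with the other), 45 lost a call and 29 gained one. With 2 libraries a group, 1 library decides most nuclear calls.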
